A study of Mus musculus with 6 samples.

Results

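Morrbid, Ier3 and the main genes of the BCL2 family were examined in stimulated CD4+ T cells from mouse spleen, to ask whether the rise of the non-coding RNA Morrbid comes with a fall of its neighbour Bcl2l11. The set has 10 genes, chosen by symbol: Morrbid, Ier3, Bcl2l11, Bbc3, Pmaip1, Bax, Bak1, Bcl2, Bcl2l1 and Mcl1. Each is represented by the probe set that the platform annotation assigns to that symbol alone and that has the highest mean over the arrays. This found 9 of the 10 among 22180 measured genes; no probe set was assigned to Bax, which was not analysed here. Morrbid and Ier3 were put in the set because they had risen in these data, so their values are a description with no test, and the other 8 were listed for their function.

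The T cells were isolated with magnetic beads, kept in medium with 10% serum and stimulated for 12 hours with anti-CD3 and anti-CD28 (1 µg/ml) in all 3 groups. ConCM received control conditioned medium. PlGFCM received medium conditioned by clones of the human embryonic kidney line HEK-293 that overexpressed PlGF2, a form of placental growth factor. IL6_ConCM received the control medium with IL-6 at 20 ng/ml. Sources used here do not give the strain, age or sex of the mice, or any pooling. Each group held 2 replicate samples on 1 array each, and the same 2 ConCM arrays serve both comparisons with ConCM. No label ties the replicates of a group to different mice or cultures, and the p-values therefore cover the spread of these samples alone, which may be technical in ConCM and IL6_ConCM. Array medians ran from 5.47 to 5.51, and PlGFCM replicate 2 stood apart by sex-linked RNA. Xist was at 8.38 on it and at 3.58 to 3.95 on the other arrays, so the PlGFCM replicates did not hold RNA of the same mice alone. Y-linked genes were lowest on that array but remained well above the array medians. Eif2s3y was at 8.59 against 8.9 to 9.14 on the others, Uty at 7.5 against 7.77 to 8.14 and Kdm5d at 7.07 against 7.42 to 7.77. That array thus held Y-linked RNA beside high Xist, and whether its sample mixed male and female mice was not tested.

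BCL2 family proteins set the threshold for the mitochondrial route to apoptosis. BCL2, BCL-XL (gene Bcl2l1) and MCL1 hold back the pore-forming effectors BAX and BAK (gene Bak1). The BH3-only proteins BIM (gene Bcl2l11), PUMA (gene Bbc3) and NOXA (gene Pmaip1) bind these guardians, and BIM is a main trigger of death in activated T cells as their response ends. Morrbid is a long non-coding RNA transcribed near Bcl2l11, known from short-lived myeloid cells, where it lowers Bcl2l11 by bringing the repressive complex PRC2 to its promoter. Ier3, also called IEX-1, is an early response gene linked to cell survival and NF-kappaB.

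The 250 bases before the annotated start of Bcl2l11, Morrbid and Ier3 are shown because these 3 genes had the largest differences of the set. They come from RefSeq on GRCm38.p6, read 5′ to 3′ on the strand of the gene, and capitals mark matches to the motifs searched. The Bcl2l11 window is chr2:128125788-128126037 on the plus strand and ends at the first of its 2 listed starts. The Morrbid window is chr2:128429352-128429601 on the minus strand, and the Ier3 window is chr17:35821463-35821712 on the plus strand.
Bcl2l11: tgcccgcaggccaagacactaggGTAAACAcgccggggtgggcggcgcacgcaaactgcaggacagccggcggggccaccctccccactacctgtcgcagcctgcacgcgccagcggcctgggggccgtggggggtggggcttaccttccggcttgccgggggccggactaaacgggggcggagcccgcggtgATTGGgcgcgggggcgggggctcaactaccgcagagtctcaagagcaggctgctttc
Morrbid: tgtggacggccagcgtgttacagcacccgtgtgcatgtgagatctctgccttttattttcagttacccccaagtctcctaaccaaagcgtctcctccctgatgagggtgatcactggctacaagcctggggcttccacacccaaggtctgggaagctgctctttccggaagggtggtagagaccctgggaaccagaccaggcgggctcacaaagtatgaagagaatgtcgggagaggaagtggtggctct
Ier3: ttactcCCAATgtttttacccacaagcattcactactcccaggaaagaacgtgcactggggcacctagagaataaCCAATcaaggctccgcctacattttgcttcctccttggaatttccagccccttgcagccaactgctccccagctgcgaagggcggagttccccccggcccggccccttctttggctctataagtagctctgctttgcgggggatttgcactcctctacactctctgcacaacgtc

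The search covered 5 motifs on both strands. They were the STAT motif TTCNNNGAA, an NF-kappaB motif, the FOXO motif TGTTTAC, the CRE motif TGACGTCA and the CCAAT box. The Bcl2l11 window held 1 FOXO match, read on the other strand as GTAAACA, and 1 CCAAT match. The window before the second listed start of Bcl2l11, not shown, held 0 FOXO matches, 2 CCAAT matches and 30 CpG dinucleotides. A window of Bbc3, also not shown, held 1 FOXO match. The Ier3 window held 2 CCAAT matches, and the Morrbid window held none of the 5. Over the 32851 RefSeq windows of the same length, 3.17% held the FOXO motif, 33.8% the CCAAT box, 7.02% the STAT motif, 1.21% the NF-kappaB motif and 1.55% the CRE motif. CpG dinucleotides numbered 24 in the Bcl2l11 window, 7 in that of Morrbid and 8 in that of Ier3, against a median of 6 over all windows. These counts describe letters and were not linked to binding here.

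Bcl2l11 did not fall in either group where Morrbid was higher than in ConCM. Its level was higher on every array with PlGF medium or IL-6 than on both ConCM arrays, though the difference did not pass after adjustment over all genes. Morrbid was higher by 0.92 log2 units in each treated group, and Ier3 by 0.75 with PlGF medium and 0.55 with IL-6. None of the 7 measured BCL2 family genes passed in any of the 3 comparisons, and by the brightest probe set of each gene none but Bcl2l11 differed by more than 0.19 log2 units. A second, dimmer Mcl1 probe set was 0.38 above ConCM in PlGFCM, which did not pass either.

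**Figure D1:**
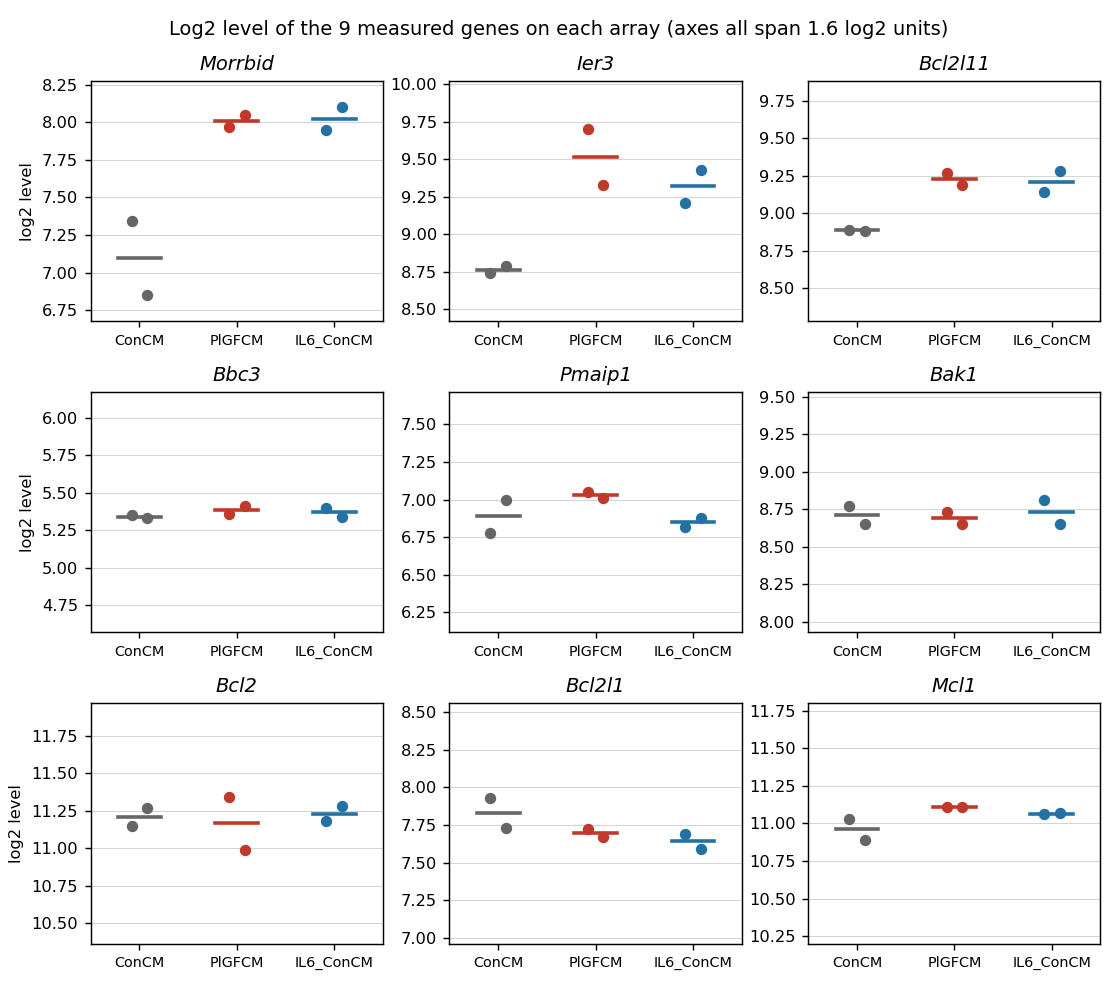
Log2 level of the 9 measured genes, 1 point per array and a line at the mean of the 2 arrays of each group (ConCM, PlGFCM, IL6_ConCM); the vertical axes differ in position but span the same range. Morrbid, Ier3 and Bcl2l11 lie higher on all treated arrays than on both ConCM arrays, while the groups of Bcl2 and Bak1 overlap.

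Morrbid had a log2 level of 7.34 and 6.85 with ConCM, 7.97 and 8.05 with PlGFCM and 7.95 and 8.10 with IL6_ConCM. All 4 treated arrays were thus above both ConCM arrays, and the treated groups overlapped each other. The ConCM arrays stood 0.35 (SD, n = 2) around a mean of 7.10, the widest spread of any member in any group, and ConCM replicate 2 was the lowest. The difference from ConCM was 0.92 ± 0.14 (SE) in PlGFCM, or 1.89-fold, and 0.92 ± 0.14 in IL6_ConCM, or 1.90-fold. Between the treated groups it was -0.01 ± 0.14, with a 95% interval from -0.32 to 0.30. Without ConCM replicate 2 the differences from ConCM were 0.67 and 0.68, and without ConCM replicate 1 they were 1.16 and 1.17.

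Ier3 was at 8.74 and 8.79 with ConCM, 9.70 and 9.33 with PlGFCM and 9.21 and 9.43 with IL6_ConCM. Both treated groups again lay above ConCM and overlapped each other, and PlGFCM replicate 1 was the highest array. The difference from ConCM was 0.75 ± 0.12 (SE), or 1.68-fold, with PlGF medium and 0.55 ± 0.12, or 1.46-fold, with IL-6. PlGFCM exceeded IL6_ConCM by 0.20 ± 0.12, with a 95% interval from -0.06 to 0.45. The PlGFCM difference was 0.56 without PlGFCM replicate 1 and 0.93 without PlGFCM replicate 2, so the estimate moved by 1 array while its direction stayed. The difference between the treated groups ran from 0.01 to 0.38 as single arrays were left out.

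Bcl2l11 was the BH3-only gene with the largest difference. Its log2 level was 8.89 and 8.88 with ConCM, 9.27 and 9.19 with PlGFCM and 9.14 and 9.28 with IL6_ConCM. Neither treated group overlapped ConCM, whose arrays were nearly equal, and the treated groups overlapped each other. In PlGFCM it was 0.34 ± 0.08 (SE) above ConCM, or 1.27-fold with a 95% interval from 1.12-fold to 1.43-fold, and limma gave an adjusted p of 0.123 over all genes. In IL6_ConCM it was 0.33 ± 0.08 above ConCM, or 1.25-fold with an interval from 1.11-fold to 1.41-fold (limma adjusted p = 0.278). These single-gene intervals, which are not adjusted for the number of genes, hold no decrease. The treated groups differed by 0.02 ± 0.08, with an interval from -0.16 to 0.19 (limma adjusted p = 0.998). The array measures RNA over the whole transcript, so the BIM splice forms and the protein were not measured here.

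**Figure D2:**
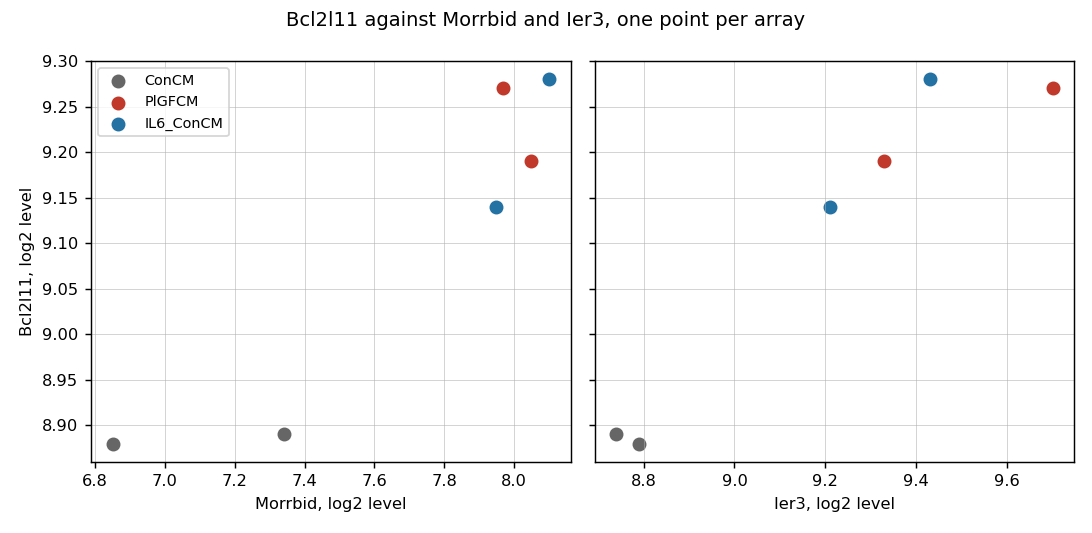
Log2 level of Bcl2l11 (vertical) against that of Morrbid (left) and Ier3 (right), 1 point per array, coloured by group. The 2 ConCM arrays are lowest for all 3 genes, so the treated arrays lie above and to the right of them.

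Set side by side by array, the 2 ConCM arrays were lowest for Morrbid and for Bcl2l11, and the other 4 formed a second cluster on both. A correlation over all 6 arrays would restate this split between groups, so none is given, and 4 arrays are too few to give one within the treated cluster. Inverse movement was therefore not seen between the treated groups and ConCM. Within ConCM, Morrbid was at 7.34 and 6.85 while Bcl2l11 was at 8.89 and 8.88. In the treated cluster Morrbid ran only from 7.95 to 8.10. The array higher in Morrbid was also higher in Bcl2l11 within IL6_ConCM, and lower in it within PlGFCM. With 2 arrays a group, these orders cannot show whether the 2 genes move together.

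Puma and Noxa, BH3-only proteins best known as products of p53 target genes, showed smaller differences at the RNA level. Bbc3 was at 5.35 and 5.33 with ConCM, 5.36 and 5.41 with PlGFCM and 5.40 and 5.34 with IL6_ConCM, the lowest mean log2 level of the set and the only one under the median of all probe sets. Its differences from ConCM were 0.05 ± 0.12 (SE) and 0.03 ± 0.12. Pmaip1 was at 6.78 and 7.0 with ConCM, 7.05 and 7.01 with PlGFCM and 6.82 and 6.88 with IL6_ConCM. It was 0.14 ± 0.11 above ConCM in PlGFCM (limma adjusted p = 0.780) and differed by -0.04 ± 0.11 in IL6_ConCM (limma adjusted p = 1.000). Both PlGFCM arrays were above both IL6_ConCM arrays for Pmaip1, with a difference of 0.18 ± 0.11 that did not pass (limma adjusted p = 0.998). The PlGFCM difference from ConCM was 0.03 without ConCM replicate 1 and 0.25 without ConCM replicate 2.

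Bak1, which encodes one of the pore-forming effectors, overlapped between all groups. It was at 8.77 and 8.65 with ConCM, 8.73 and 8.65 with PlGFCM and 8.81 and 8.65 with IL6_ConCM. Its differences from ConCM were -0.02 ± 0.09 (SE) and 0.02 ± 0.09, with 95% intervals from -0.21 to 0.17 and from -0.18 to 0.21.

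None of the 3 genes of mitochondrial guardians passed. Bcl2 was at 11.15 and 11.27 with ConCM, 11.34 and 10.99 with PlGFCM and 11.18 and 11.28 with IL6_ConCM, so the PlGFCM arrays enclosed all others. Its differences from ConCM were -0.05 ± 0.10 (SE) and 0.02 ± 0.10, and the 95% interval with PlGF medium ran from -0.26 to 0.16. Bcl2l1 was at 7.93 and 7.73 with ConCM, 7.72 and 7.67 with PlGFCM and 7.69 and 7.59 with IL6_ConCM. All treated arrays were thus just below both ConCM arrays, with differences of -0.13 ± 0.10 and -0.19 ± 0.10 that did not pass (limma adjusted p = 0.765 and 0.936). They were -0.04 and -0.09 without ConCM replicate 1, and -0.23 and -0.29 without ConCM replicate 2.

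Mcl1, whose protein is short-lived and must be made continually, was at 11.03 and 10.89 with ConCM, 11.11 and 11.11 with PlGFCM and 11.06 and 11.07 with IL6_ConCM. The treated arrays were above both ConCM arrays and very close to each other. The differences from ConCM were 0.15 ± 0.06 (SE) with PlGF medium and 0.10 ± 0.06 with IL-6 (limma adjusted p = 0.515 and 0.981). They were 0.22 and 0.17 without ConCM replicate 1, and 0.08 and 0.03 without ConCM replicate 2. A second Mcl1 probe set, of lower signal, gave 7.16 and 7.23 with ConCM, 7.57 and 7.58 with PlGFCM and 7.34 and 7.43 with IL6_ConCM. It had the same direction with larger differences of 0.38 ± 0.10 and 0.19 ± 0.10, which did not pass when all probe sets were tested singly (limma adjusted p = 0.549 and 1). The 2 probe sets of Mcl1 thus disagree in size. The second probe set of Bcl2 differed from ConCM by -0.16 ± 0.14 in PlGFCM and 0.04 ± 0.14 in IL6_ConCM.

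**Figure D3:**
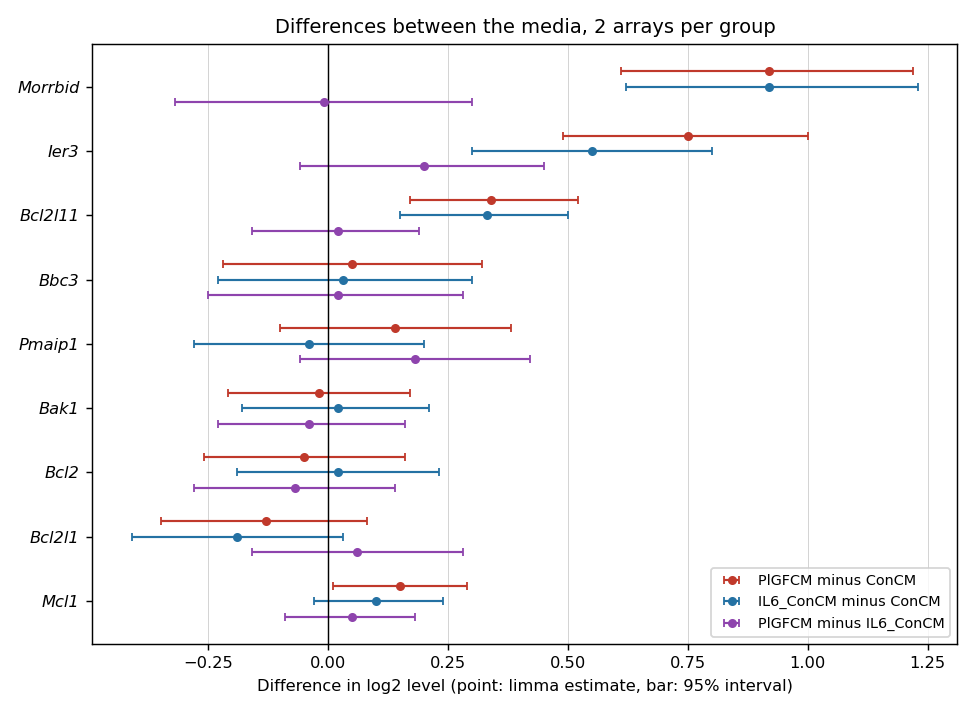
Difference in log2 level for the 9 measured genes in the 3 comparisons; points are limma estimates and bars their 95% intervals from 2 arrays per group, a description only for Morrbid and Ier3. The Bcl2l11 bars lie above 0 in both comparisons with ConCM, and the bars of all genes span 0 between PlGFCM and IL6_ConCM.

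Counted over the family, 0 of 7 measured genes passed limma in PlGFCM against ConCM, where 0.433% of all genes passed, 0.352% by rising and 0.0812% by falling. At an unadjusted p under 0.05 they were 2, Bcl2l11 and Mcl1, against 8.74% of all genes. In IL6_ConCM against ConCM 0 of 7 passed, where 0.113% of all genes did, 0.0857% by rising and 0.0271% by falling, and Bcl2l11 alone had an unadjusted p under 0.05, against 5.62% of all genes. Between PlGFCM and IL6_ConCM 0 of 7 passed, against 0.0316% of all genes, and 0 had an unadjusted p under 0.05, against 4.37%. The medians over the 7 genes were 0.05, 0.02 and 0.02 log2 units in these comparisons, beside -0.01, -0.01 and 0 over all genes. PlGFCM and ConCM did not overlap for 5 of the 7, against 38.2% of all genes: 4 were higher, against 17.3%, and Bcl2l1 was lower, against 20.9%. IL6_ConCM and ConCM did not overlap for 3 of the 7, against 34.1%: 2 were higher, against 15.7%, and Bcl2l1 was lower, against 18.4%. PlGFCM and IL6_ConCM did not overlap for 2 of the 7, Mcl1 and Pmaip1, both higher in PlGFCM, against 30.1% in either direction and 15.2% higher. With 2 arrays a side, an exact two-sided permutation test cannot give a p below 0.333.

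None of 5 other measured genes at the locus passed. The RefSeq gene table places Morrbid next to Bcl2l11 on chromosome 2 with 1 predicted gene between them, and Acoxl, an acyl-CoA oxidase-like gene, overlaps Bcl2l11 there, so their signals may not be fully separate. Acoxl differed from ConCM by 0.03 ± 0.13 (SE) in PlGFCM and 0.13 ± 0.13 in IL6_ConCM. On the far side of Bcl2l11, Mtln differed by -0.18 ± 0.15 and 0.04 ± 0.15, and Bub1, a kinase of the mitotic checkpoint, by -0.12 ± 0.15 and -0.06 ± 0.15. Beyond Morrbid, Spdye4c differed by -0.09 ± 0.12 and 0.27 ± 0.12, and the pseudogene Gm14007 by -0.09 ± 0.14 and 0.09 ± 0.14. In both comparisons their limma adjusted p was at least 0.790.

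Among 12 measured regulators of Bim, Ezh2 fell in PlGFCM, where 0.0812% of all genes fell, and the other 11 did not pass. In PlGFCM 3 of the 12 had an unadjusted p under 0.05, against 8.74% of all genes. Ezh2 encodes the methyltransferase of PRC2, the complex that Morrbid is known to recruit. It was at 10.10 and 10.03 with ConCM, 9.70 and 9.66 with PlGFCM and 9.85 and 9.81 with IL6_ConCM, with no overlap between any of the groups. It fell by 0.38 ± 0.07 (SE) in PlGFCM (limma adjusted p = 0.0349) and was -0.23 ± 0.07 from ConCM in IL6_ConCM, which did not pass (limma adjusted p = 0.471). The call was lost when any 1 of the 4 arrays of ConCM or PlGFCM was left out, with array medians subtracted, with all probe sets tested singly, without the intensity trend and with a replicate block. The PRC2 subunit genes Eed, Suz12 and Rbbp7 did not pass: Eed was at -0.06, Suz12 at 0.01 and Rbbp7 at -0.19 ± 0.07 in PlGFCM. Foxo1, a transcription factor that activates Bcl2l11, was at 9.70 and 9.69 with ConCM, 9.89 and 9.99 with PlGFCM and 9.76 and 9.85 with IL6_ConCM, a difference of 0.25 ± 0.07 in PlGFCM that did not pass (limma adjusted p = 0.271). Ddit3, which encodes the stress factor CHOP, differed by 0.11 ± 0.11 and 0.22 ± 0.11. In IL6_ConCM 0 of the 12 passed limma, with 2 at an unadjusted p under 0.05, against 5.62% of all genes.

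In the cytokine survival list, 2 of 15 measured genes rose in PlGFCM, where 0.352% of all genes rose, 0 fell and 13 did not pass. At an unadjusted p under 0.05 there were 9 of the 15 in PlGFCM, against 8.74% of all genes, and 3 in IL6_ConCM, against 5.62%. Socs3, a feedback inhibitor induced by STAT3, rose by 0.49 ± 0.09 (SE) from 9.29 ± 0.11 (SD, n = 2) (limma adjusted p = 0.0442), and Il6ra, the IL-6 receptor chain, by 0.41 ± 0.07 (limma adjusted p = 0.0285). Neither passed when 1 of the 4 arrays of ConCM or PlGFCM was left out. In IL6_ConCM they were at 0.40 ± 0.09 and 0.36 ± 0.07 and did not pass (limma adjusted p = 0.217 and 0.101). Stat5a, which relays IL-2 and IL-7 signals towards Bcl2 family genes, was at 0.39 ± 0.08 in PlGFCM and 0.04 ± 0.08 in IL6_ConCM, and Stat5b at 0.24 ± 0.07 and 0.00 ± 0.07, none of which passed. Pim2, a survival kinase, was at -0.24 ± 0.07 and -0.20 ± 0.07, and Il2rb, an IL-2 receptor chain, at -0.07 ± 0.05 and -0.11 ± 0.05. The list's median was 0.11 in PlGFCM and 0.01 in IL6_ConCM, beside -0.01 over all genes in each.

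In the list of IER and NF-kappaB early response genes, to which Ier3 is related, 0 of 16 measured genes passed limma in PlGFCM, against 0.433% of all genes, and 6 had an unadjusted p under 0.05, against 8.74%. The list's median was 0.14, with 13 genes higher and 3 lower. Bcl3, a nuclear IkappaB protein, was at 0.34 ± 0.07 (SE) and Tnfaip3, the NF-kappaB inhibitor A20, at 0.32 ± 0.08 (limma adjusted p = 0.0806 and 0.179). Ier2 was at 0.26 ± 0.12, Ier5 at 0.27 ± 0.11 and Ier5l at -0.01 ± 0.11. In IL6_ConCM 0 of 16 passed limma with 2 at an unadjusted p under 0.05, against 5.62% of all genes. The median was 0.01, and Bcl3 was at 0.26 ± 0.07 and Icam1, an adhesion molecule, at -0.23 ± 0.07.

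Of the remaining BCL2 family, 0 of 14 measured genes passed limma in PlGFCM or in IL6_ConCM, with 1 at an unadjusted p under 0.05 in each, against 8.74% and 5.62% of all genes. That was Bcl2l2, the gene of the guardian BCL-W, at -0.37 ± 0.13 (SE) and -0.34 ± 0.13. It was at 6.39 and 6.32 with ConCM, 6.06 and 5.91 with PlGFCM and 5.88 and 6.15 with IL6_ConCM, with all treated arrays below both ConCM arrays. Bnip3 was at 0.23 ± 0.15 and 0.14 ± 0.15, and Bad, a BH3-only gene, at 0.01 ± 0.12 and -0.18 ± 0.12. The Bcl2a1 genes are near-identical copies; Bcl2a1a was at 0.13 ± 0.13 in PlGFCM, an assignment that is uncertain for that reason.

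Downstream of mitochondria, 0 of 18 measured genes of caspases, apoptosome and their inhibitors passed limma in either comparison with ConCM, with 2 at an unadjusted p under 0.05 in each, against 8.74% and 5.62% of all genes. Casp6, an executioner caspase, came nearest in IL6_ConCM, at 10.20 and 10.14 with ConCM, 10.41 and 10.36 with PlGFCM and 10.50 and 10.63 with IL6_ConCM. It was 0.39 ± 0.07 (SE) above ConCM with IL-6 (limma adjusted p = 0.0590) and 0.21 ± 0.07 with PlGF medium (limma adjusted p = 0.343). Aifm1 was at -0.20 ± 0.09 and -0.03 ± 0.09, and Htra2 at -0.08 ± 0.08 and -0.22 ± 0.08.

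On the death receptor list 0 of 13 measured genes passed limma in either comparison, with 4 and 1 at an unadjusted p under 0.05, against 8.74% and 5.62% of all genes. Cflar, the gene of the caspase-8 inhibitor FLIP, was at 0.28 ± 0.07 (SE) in PlGFCM and 0.16 ± 0.07 in IL6_ConCM, Tnfrsf1b, a TNF receptor, at 0.21 ± 0.07 and 0.02 ± 0.07, and Fasl, the death ligand, at -0.16 ± 0.13 and -0.30 ± 0.13. On the p53 list 0 of 17 measured genes passed limma in either comparison, with 2 and 0 at an unadjusted p under 0.05, against the same shares. Trp53inp1, a p53 target, was at 9.69 and 9.70 with ConCM, 10.06 and 10.08 with PlGFCM and 9.72 and 9.87 with IL6_ConCM, a difference of 0.37 ± 0.07 in PlGFCM (limma adjusted p = 0.0571). Aen was at -0.28 ± 0.11 and -0.17 ± 0.11, and Sesn1 at -0.18 ± 0.13 and -0.22 ± 0.13. For MCL1 turnover 0 of 7 genes passed limma or had an unadjusted p under 0.05 in either comparison; Fbxw7, which marks MCL1 for degradation, was at 0.16 ± 0.09 and 0.03 ± 0.09, Gsk3b at 0.15 ± 0.07 and 0.04 ± 0.07, Btrc at 0.14 ± 0.10 and 0.08 ± 0.10, and Trim17 at 0.00 ± 0.16 and 0.12 ± 0.16. The medians of these 4 lists and of the remaining BCL2 family lay between -0.02 and 0.07.

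**Figure D4:**
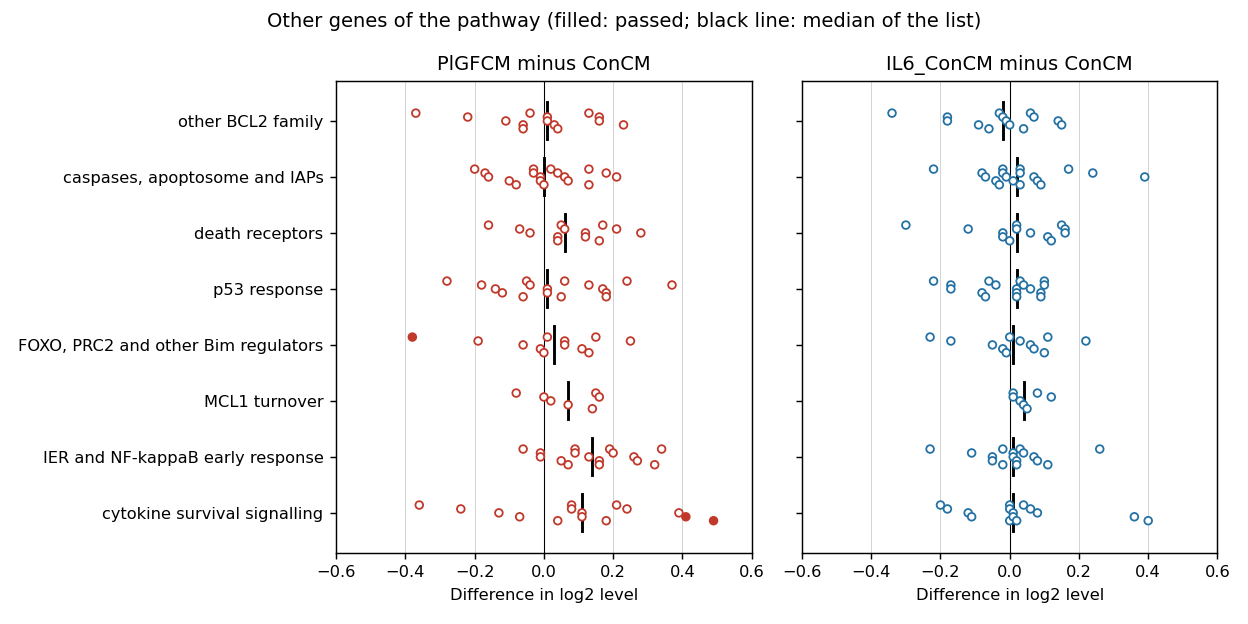
Difference in log2 level from ConCM of the genes on 8 lists, in PlGFCM (left) and IL6_ConCM (right); each circle is a gene, filled where it passed limma at an adjusted p under 0.05, and a black line marks the list's median. The filled circles are Ezh2, Il6ra and Socs3 in PlGFCM, and there are 0 in IL6_ConCM.

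The genes whose pattern over the 6 arrays was most like that of Morrbid, by Pearson's r among 10458 named genes with a mean at or above the median, were Wdtc1 (r = 0.998), Med13l (r = 0.996), Phf2 (r = 0.995), Letm2 (r = 0.995) and Il21r (r = 0.992). Il21r, the IL-21 receptor, was at 10.32 and 10.03 with ConCM, 10.63 and 10.61 with PlGFCM and 10.66 and 10.69 with IL6_ConCM. For Ier3 they were Ppox (r = 0.998), Ncoa1 (r = 0.995), Neb (r = 0.992), Tec (r = 0.989) and the inhibitory receptor gene Ctla4 (r = 0.986). For Bcl2l11 they were Zfp36l2 (r = 0.996), Tnfrsf23 (r = 0.992), Cbl (r = 0.991), Trib2 (r = 0.990) and Smap2 (r = 0.985). An r of at least 0.95 was reached by 0.679% of the genes for Morrbid, 1.02% for Ier3 and 0.784% for Bcl2l11. The arrays share their groups, so these are descriptions.

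Morrbid is best known from myeloid cells, so markers of other cells are given beside it. Of 10 neutrophil markers 1 rose in both comparisons, Ly6g, by 1.62 and 1.36, whose probe set belongs to a family of similar sequence, and the other 9 did not pass. S100a8, an abundant neutrophil gene, had a log2 level of 3.23 and 3.09 with ConCM, 3.07 and 3.24 with PlGFCM, and 3.06 and 2.98 with IL6_ConCM. S100a9, its partner, had 4.70 and 4.40, 4.23 and 4.75, and 4.25 and 4.20 in the same order. Neither passed. The mean over the neutrophil markers, Ly6g included, ran from 4.75 to 4.78 in ConCM, 4.79 to 4.96 in PlGFCM and 4.74 to 4.89 in IL6_ConCM. In each comparison with ConCM, 3 of the 10 were higher and 7 lower. Their median differences were -0.05 in PlGFCM and -0.11 in IL6_ConCM, beside -0.01 over all genes in each. For 5 eosinophil markers the mean ran from 4.96 to 5.08, 4.97 to 5.03 and 4.99 to 5.08, and for 9 monocyte and macrophage markers from 6.24 to 6.26, 6.33 to 6.46 and 6.33 to 6.35. None of these 14 markers passed limma, and those with an unadjusted p under 0.05 in either comparison are named next. Cd14 was at 0.67 in PlGFCM and -0.03 in IL6_ConCM, Adgre1 at 0.38 and 0.05, Ccr2 at 0.15 and 0.41, and the eosinophil receptor gene Ccr3 at 0.40 and 0.43. Mertk was at -0.32 and -0.06, and Il5ra, another eosinophil receptor gene, at -0.07 and -0.36. Of 6 CD8 T and NK cell markers Eomes, a transcription factor of these cells, fell in both comparisons, by 1.34 and 1.44 (limma adjusted p = 0.00908 and 0.00804), and the other 5 did not pass. The mean over these 6, Eomes included, ran from 5.55 to 5.80 in ConCM, 5.38 to 5.47 in PlGFCM and 5.32 to 5.54 in IL6_ConCM. It was lower on all 4 treated arrays, but the other 5 markers went both ways. Cd8a was at -0.07 in PlGFCM and -0.16 in IL6_ConCM, and Cd8b1 at -0.21 and -0.18. Ncr1 was at -0.20 and 0.08, Klrb1c at 0.06 and 0.11, and Klre1 at 0.28 and 0.12. Of 5 measured B cell markers Ms4a1, the gene of CD20, fell in PlGFCM by 0.84 (limma adjusted p = 0.0125) and was at -0.31 in IL6_ConCM, and the other 4 did not pass. Cd79b was at 0.33 in PlGFCM and 0.22 in IL6_ConCM, Pax5 at 0.31 and 0.04, and Cd79a at 0.22 and 0.07. Cd22 was at -0.02 and 0.13. An unadjusted p under 0.05 was reached by 3 of the 5 in PlGFCM, Ms4a1, Cd79b and Pax5, and by Ms4a1 alone in IL6_ConCM. The B cell mean, in which these opposite differences partly cancel, was between 6.69 and 6.73 on all arrays. None of 5 dendritic cell markers passed limma or had an unadjusted p under 0.05, with means from 5.71 to 5.83 in ConCM, 5.71 to 5.77 in PlGFCM and 5.59 to 5.77 in IL6_ConCM. The part of other cells in the Morrbid difference was not tested, and in bulk RNA fewer cells of a type and less RNA per cell cannot be told apart. Of 8 CD4 T cell markers 0 passed limma in either comparison, with 1 and 0 at an unadjusted p under 0.05, and Cd4 was between 11.13 and 11.40 on all arrays. Beside these marker counts, 0.352% of all genes rose and 0.0812% fell in PlGFCM, and 0.0857% rose and 0.0271% fell in IL6_ConCM. An unadjusted p under 0.05 was reached by 8.74% and 5.62% of all genes.

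Without PlGFCM replicate 2, the array with high Xist, Morrbid was 0.87 above ConCM, Ier3 0.93 and Bcl2l11 0.38 ± 0.10 (SE), all in the same direction, and Bcl2 turned from -0.05 to 0.13, which did not pass.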

How the data were processed

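RNA of each sample was hybridised to 1 Affymetrix whole-transcript array. Deposited values are log2 levels, 1 for each probe set and array. The submitters' processing notes name Transcriptome Analysis Console, the authors' software. Its version, the background correction, normalization and genome build: not given in the sources used here. That the scale is log2 follows from the range of the values. Of 41345 probe sets, 23521 have 1 gene symbol and 1814 several, which were left out; 16010 are unnamed here. Keeping the brightest probe set of each gene left 22180 genes, and dim ones were kept.

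Differences were fitted with limma 3.58.1 in R 4.3.3 (lmFit, then eBayes with trend) over the 6 arrays together, with Benjamini-Hochberg adjustment over all genes. A gene passed, and is said to have risen or fallen, at an adjusted p under 0.05. The fit was also run on simulated data with independent normal noise, as the model assumes. That run cannot show how well the calls hold on these arrays. The members and lists were chosen with earlier results of these data known. All measured members are named; from each list, genes that passed and up to 2 further genes with the smallest p in each comparison with ConCM, plus the 5 most similar patterns and the 2 nearest genes on each side of Bcl2l11 and Morrbid with a probe set of their own; Eed, Suz12, Ier2, Ier5, Ier5l, Bcl2a1a and the markers of other cells were chosen after their values were seen. The planned correlation of Morrbid with Bcl2l11 is not given because the arrays cluster. The number of arrays limits the precision. In all, 17 alternatives were run.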

Additional observations from a re-analysis of the deposited data

How the results depend on the processing

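Under all 17 alternatives Bcl2l11 was higher than ConCM in both treated groups and did not pass, with differences of 0.31 to 0.38 (adjusted p from 0.0729 to 0.536) in PlGFCM and 0.25 to 0.40 (adjusted p from 0.168 to 0.971) in IL6_ConCM, and 0 of the BCL2 family genes tested passed in any comparison (6 genes where those under the median level were left out, Bbc3 among them, and 7 otherwise). Morrbid was higher by 0.67 to 1.16 and 0.68 to 1.17. Small differences changed sign. Leaving out 1 array gave ranges of -0.22 to 0.13 for Bcl2 and -0.08 to 0.04 for Bak1 in PlGFCM against ConCM, -0.04 to 0.08 for Bcl2, -0.06 to 0.10 for Bak1 and -0.15 to 0.07 for Pmaip1 in IL6_ConCM against ConCM, and -0.24 to 0.11 for Bcl2, -0.12 to 0.04 for Bak1, -0.05 to 0.09 for Bcl2l11, -0.01 to 0.04 for Bbc3 and -0.08 to 0.06 for Morrbid in PlGFCM against IL6_ConCM. After quantile normalization Bcl2 was at -0.0042 in IL6_ConCM against ConCM; the cause was not tested.

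The number of all genes that passed ran from 5 to 174 in PlGFCM against ConCM (96 as reported), 0 to 53 in IL6_ConCM against ConCM (25) and 0 to 10 in PlGFCM against IL6_ConCM (7), lowest with all probe sets tested singly and highest among genes whose level reached the median. Without 1 array the counts ran from 12 to 107, 2 to 41 and 0 to 5. The alternatives for Ezh2, Il6ra and Socs3 were added after the data were seen, and 9, 10 and 8 of 17 kept the call.

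The labels do not say whether equal replicate numbers mark paired samples. Deviations of replicate 1 over all genes correlated at -0.039, 0.111 and 0.033 between groups. Such values cannot show whether samples shared an animal, culture or day. With a replicate block Bcl2l11 was at 0.34 in PlGFCM (adjusted p = 0.147) and 0.33 in IL6_ConCM (adjusted p = 0.319), and 62, 16 and 5 genes passed in the 3 comparisons; Ezh2, Il6ra and Socs3 did not.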
